A study of Mus musculus with 16 samples.

Results

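A group of 10 tetraspanin genes, Cd9, Cd37, Cd53, Cd63, Cd81, Cd82, Cd151, Tspan3, Tspan14 and Tspan31, was taken from the 27928 genes of the RNA-seq table by gene symbol, and all 10 were found there. RNA had been sequenced from mouse spleen B cells of the follicular (FO) and the marginal zone (MZ) kind, with 2 libraries in each of 4 groups. WT mice were C57BL/6, with neither Cre nor floxed alleles. The cKO mice were Gtf2i fl/fl with Cre in B cells, where it deletes the floxed alleles of Gtf2i, the gene of the transcription factor TFII-I, so that loss of Gtf2i and presence of Cre cannot be told apart. No agent was given, and the mice of the study were 8 to 12 weeks old. Splenic B cells were enriched by negative selection, after which FO B cells were sorted as CD21lo CD23hi and MZ B cells as CD21hi CD23lo. How many mice stand behind a library is not stated. Each p therefore measures the spread between these libraries, which may be technical.

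Tetraspanins are small proteins that cross the membrane repeatedly and gather partner proteins into patches called tetraspanin-enriched microdomains. They act through what they hold together, such as integrins, the complement receptor CD21 of B cells, the protease ADAM10 and membrane-bound kinases. CD9 is in wide use as a surface marker of MZ B cells, B1 cells and plasma cells in the mouse, while CD37 and CD53 are largely restricted to leukocytes. FO B cells recirculate through the follicles, whereas MZ B cells are found mainly at the border of the white pulp and respond fast to blood-borne antigen.

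Cd9 in MZ B cells exceeded its FO level by 16.8-fold in WT and 18.0-fold in cKO, the widest gap of the 9 genes that could be tested. Tspan31 was 2.37-fold and 2.27-fold higher and Cd81 1.82-fold and 1.76-fold. Tspan3 passed in WT alone, at 1.51-fold against 1.49-fold in cKO, and this WT call was kept in 6 of 17 alternative settings. Cd82 and Cd53 differed by less than 1.5-fold, Cd37, Tspan14 and Cd151 did not pass the test, and Cd63 was too low to be tested. Values are normalized counts, that is reads divided by the size factor of the library, and differences are log2 (MZ minus FO) of the normalized count plus 1. Limma was fitted across 14761 genes, and a call needed an adjusted p no larger than 0.05 together with a difference of 1.5-fold or more. On the log2 scale 1.5-fold is 0.585, and a call lost at a larger absolute difference under this cutoff was lost on p.

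The promoters of Cd9, Tspan31 and Cd81, called in both genotypes, and of Tspan15, a further tetraspanin gene with a wide gap, are shown as the sequence beside which these calls can be read. They are the 250 bases upstream of the RefSeq start on GRCm38.p6, written 5′ to 3′ on the strand of the gene. The Cd9 window is chr6:125494761-125495010 (minus strand), that of Cd81 chr7:143052500-143052749 (plus strand), that of Tspan31 chr10:127070262-127070511 (minus strand) and that of Tspan15 chr10:62231219-62231468 (minus strand). Capitals mark matches, on either strand, to 6 short motifs.
Cd9: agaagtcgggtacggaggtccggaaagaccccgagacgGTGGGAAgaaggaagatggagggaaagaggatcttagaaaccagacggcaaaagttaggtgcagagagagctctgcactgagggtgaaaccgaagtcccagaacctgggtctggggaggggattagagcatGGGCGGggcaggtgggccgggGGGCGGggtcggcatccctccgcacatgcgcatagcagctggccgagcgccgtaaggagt
Cd81: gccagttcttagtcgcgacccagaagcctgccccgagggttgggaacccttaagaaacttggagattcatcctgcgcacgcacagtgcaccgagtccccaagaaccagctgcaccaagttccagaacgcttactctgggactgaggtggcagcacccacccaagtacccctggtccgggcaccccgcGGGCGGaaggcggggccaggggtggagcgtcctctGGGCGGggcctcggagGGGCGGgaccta
Tspan31: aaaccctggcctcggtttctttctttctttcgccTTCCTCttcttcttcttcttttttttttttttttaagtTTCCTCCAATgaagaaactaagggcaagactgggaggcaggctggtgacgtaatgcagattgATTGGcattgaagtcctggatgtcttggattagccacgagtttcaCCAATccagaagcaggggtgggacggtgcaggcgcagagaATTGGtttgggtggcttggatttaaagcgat
Tspan15: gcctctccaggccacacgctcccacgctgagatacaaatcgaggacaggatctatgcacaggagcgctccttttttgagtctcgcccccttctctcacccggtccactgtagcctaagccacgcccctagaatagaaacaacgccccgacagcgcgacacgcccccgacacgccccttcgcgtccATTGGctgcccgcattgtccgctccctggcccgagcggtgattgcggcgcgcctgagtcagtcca

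The motifs were GTGGGAA for RBPJ (the DNA-binding partner of Notch), GGGCGG for the GC box, TATAAA for the TATA box, CCAAT for the CCAAT box, CACGTG for the E box and GAGGAA for PU.1. The Cd9 window held 1 RBPJ match and 2 GC boxes, and the Cd81 window held 3 GC boxes. In the Tspan31 window there were 4 CCAAT boxes and 2 PU.1 matches, with a box and a match overlapping in the run TTCCTCCAAT, and the Tspan15 window held 1 CCAAT box. No match to TATAAA or CACGTG was found in the 4 windows. Among 32851 RefSeq windows of this length, 5.42% held the RBPJ motif, 32.7% the GC box, 12.4% the TATA box, 33.8% the CCAAT box, 6.02% the E box and 23.3% the PU.1 motif. GC content was 61.6% for Cd9, 65.6% for Cd81, 46.0% for Tspan31 and 63.2% for Tspan15. A match is a run of letters and no evidence of binding.

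Each library had between 21546552 and 25083552 reads on genes. The labels of the sort were checked on Cr2, the gene of CD21, with 22942 to 26803 normalized counts in FO and 86953 to 97087 in MZ libraries, and on Fcer2a, the gene of CD23, at 24802 or more in FO and 6708 or less in MZ libraries. Gtf2i, counted over the whole gene, was lower in each cKO library (1523 to 1889) than in each WT library (1992 to 2864), but was not called between the genotypes (limma adjusted p = 0.989 in FO and 0.363 in MZ). Xist was at least 25929.5 in WT libraries and between 21.7 and 14748 in cKO libraries, so this sex-linked transcript also separated the genotypes. Within cKO it was 14748 in FO replicate 1, 67.4 in FO replicate 2, and 89.7 and 21.7 in the MZ libraries. Xist thus also differed between the cKO FO replicates, and the part of sex-linked transcripts in the cKO comparison of MZ with FO was not tested. The library cKO MZ replicate 1 stood apart, with 8 granulocyte markers summing to 1842 against at most 105 elsewhere and 6 erythroid markers to 13304 against at most 1007. Fewer cells of a type and less RNA per cell cannot be told apart in bulk libraries.

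Of the 9 tested genes, 4 were called higher in MZ for WT, where 7.41% of all genes tested were, and 0 lower, against 4.62% of all. For cKO 3 were called higher, against 8.18% of all, and 0 lower, against 5.54%. Fitted across both genotypes, 4 were called higher (10.9% of all) and 0 lower (7.45% of all). At an unadjusted p under 0.05, limma had 1 gene of the 9 lower, Cd53, in each of these comparisons, and edgeR and DESeq2 called 0 lower. In either direction 6 of the 9 had such a p in each comparison. Over the 14761 genes tested, 4469 had one for WT, 4933 for cKO and 6509 across both genotypes. The median log2 difference over the 9 genes was 0.43 for WT and 0.40 for cKO, against -0.0048 and -0.0047 over all genes tested. Each of the 4 MZ libraries was above each of the 4 FO libraries for 5 genes (Cd9, Cd81, Cd82, Tspan3 and Tspan31), an order found in 18.6% of all genes tested. The opposite order held for Cd53 and for 17.9% of all genes.

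**Figure D1:**
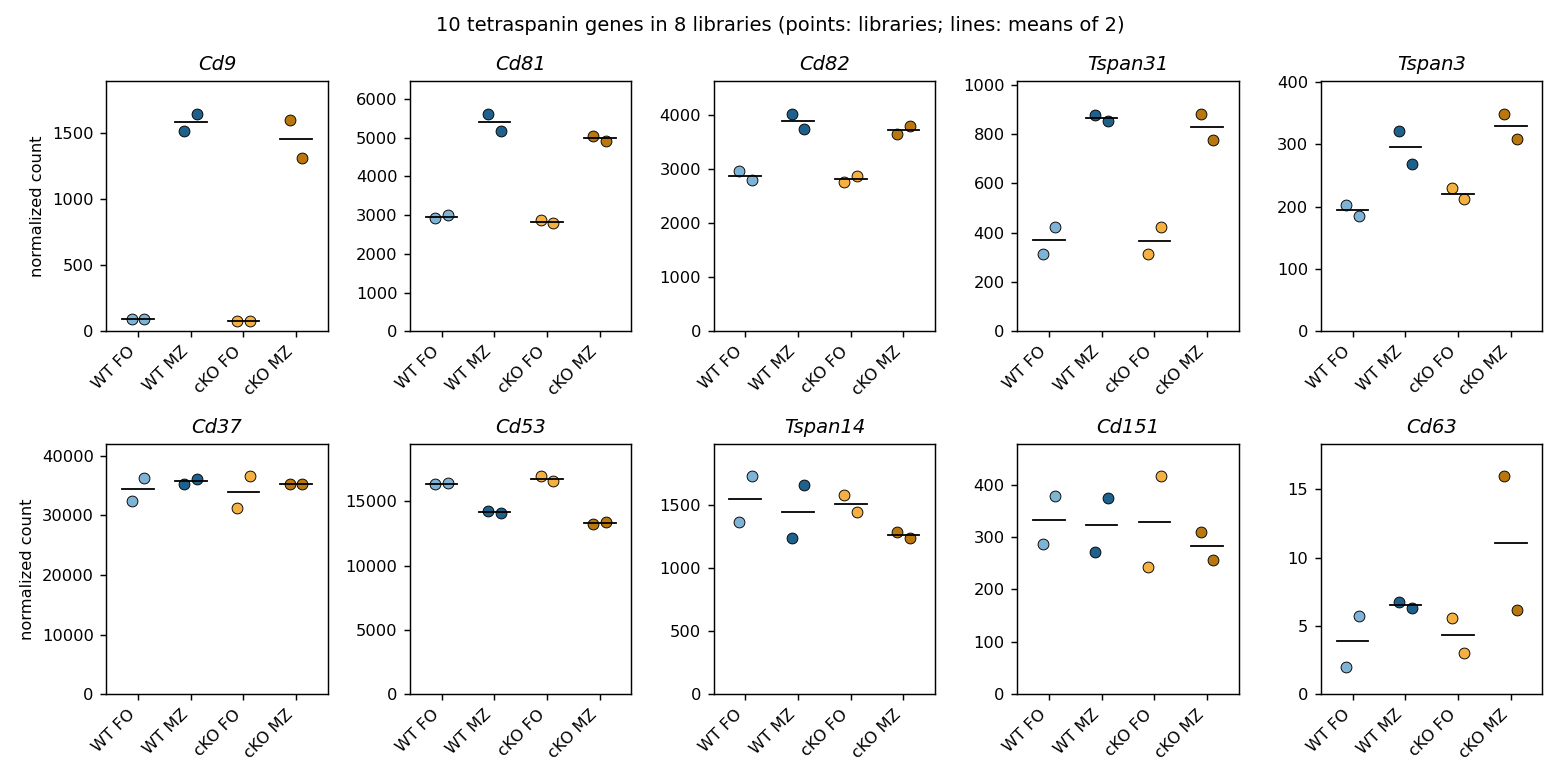
Normalized counts (y axis, linear, from 0) of the 10 tetraspanin genes in WT FO, WT MZ, cKO FO and cKO MZ B cells (x axis), with a point for each library and a line at the mean of 2. Cd9 sits between 78.5 and 95.1 in FO and between 1309 and 1646 in MZ libraries, while the points of Cd37 and Cd151 overlap between FO and MZ.

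Cd9 (ENSMUSG00000030342.8, chromosome 6 from 125460266 to 125494791 of GRCm38) encodes a tetraspanin that binds integrins and immunoglobulin-superfamily partners such as IGSF8. Its normalized counts were 90.8 and 95.1 for WT FO, 1519 and 1646 for WT MZ, 80.6 and 78.5 for cKO FO, and 1596 and 1309 for cKO MZ. The 4 FO libraries lay close together and far below all 4 MZ libraries. As means this was 93.0 ± 3.06 against 1583 ± 90.2 for WT and 79.6 ± 1.49 against 1452 ± 203 for cKO (SD, n = 2 each). MZ minus FO came to 4.07 for WT (SE 0.139, 95% interval 3.75 to 4.40, limma adjusted p = 8.98e-06). For cKO it came to 4.17 (SE 0.139, 95% interval 3.84 to 4.49, limma adjusted p = 7.58e-06). The call was made for WT and for cKO under each of 17 alternative settings that kept the fold cutoff, and without cKO MZ replicate 1 the cKO value was 4.02 (limma adjusted p = 0.000653).

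Other cells that carry CD9 were read from their own markers. Platelets and megakaryocytes, with 6 markers, summed to 173 to 220 normalized counts in FO and 119 to 167 in MZ libraries, and Pf4, which defines platelets, was at most 2.99. Plasma cells, with 5 markers, summed to 1021 to 2190.1 in FO and 1656 to 5118 in MZ libraries. Of the 4 plasma cell markers tested, 2 were called higher and 1 lower in MZ in each genotype. Those called higher were Mzb1 (145 to 186 in FO and 741 to 1096 in MZ libraries) and Prdm1 (77.1 to 153 in FO and 279 to 594 in MZ libraries). The lower was Sdc1 (331 to 463 in FO and 27.0 to 101 in MZ libraries). Jchain alone stood at 305 and 3692 in the 2 WT MZ libraries. B1 cells, with 4 markers, summed to 766 to 1168 in FO and 451 to 1184 in MZ libraries. Dendritic cells, with 6 markers, summed to 190 to 265 in FO and 307 to 507 in MZ libraries. Of the 5 tested, 1 was called higher in MZ for cKO and 0 lower. Macrophages, with 8 markers, summed to 501 to 1075 in FO and 511 to 1645 in MZ libraries, and 0 were called. Granulocytes, with 8 markers, summed to 22.8 to 85.8 in FO and 40.8 to 1842 in MZ libraries, the highest in cKO MZ replicate 1. Of these 8, 2 were called higher in MZ for cKO and 0 lower. The part of platelets and megakaryocytes, plasma cells, B1 cells, dendritic cells, macrophages and granulocytes in the level of Cd9 was not tested.

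Cd81 (chromosome 7, 143052739 to 143067934) encodes a member that joins CD21 in a complex on the B cell surface. It was read at 2923 and 3003 normalized counts for WT FO, 5616 and 5179 for WT MZ, 2867 and 2788 for cKO FO, and 5050.3 and 4917 for cKO MZ. FO and MZ libraries did not overlap. The log2 difference came to 0.86 for WT (SE 0.0789, 95% interval 0.68 to 1.05, limma adjusted p = 0.000538) and 0.82 for cKO (SE 0.0789, 95% interval 0.63 to 1.00, limma adjusted p = 0.000596). Of its 2879 exon bases, 104 are shared with R74862 on the opposite strand, which had 126 to 157 normalized counts over the 8 libraries and did not pass (limma adjusted p = 0.708 for WT and 0.571 for cKO).

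Cr2, the gene of CD21, was called higher in MZ, at 1.80 for WT and 1.93 for cKO (limma adjusted p = 0.000136 and 9.5e-05), which follows from sorting on CD21 and is no finding.

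Cd82 (chromosome 2, 93419111 to 93463140) encodes a member known for restraining cell motility and integrin signalling. Its libraries gave 2959.9 and 2798 normalized counts for WT FO, 4028 and 3748 for WT MZ, 2760.0 and 2877 for cKO FO, and 3648 and 3803 for cKO MZ. Each MZ library exceeded each FO library. Limma put the difference at 0.43 for WT (SE 0.0817, limma adjusted p = 0.011) and 0.40 for cKO (SE 0.0817, limma adjusted p = 0.0129). Cd82 thus met the cutoff on p in both genotypes, but at 1.35-fold and 1.32-fold not that on size.

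Cd37 (chromosome 7, 45233632 to 45239115) encodes a leukocyte tetraspanin that in B cells organises the integrin whose chains come from Itga4 and Itgb1. With 32430.1 and 36309 normalized counts for WT FO, 35349.6 and 36185 for WT MZ, 31296 and 36548 for cKO FO, and 35273 and 35224 for cKO MZ, it had the most reads of the 10 genes. FO and MZ libraries overlapped, and in each genotype the 2 FO libraries lay further apart than the 2 MZ libraries. The log2 difference was 0.06 for WT and for cKO, with a 95% interval from -0.20 to 0.32 for each (limma adjusted p = 0.774 and 0.753). Both intervals exclude a difference of 1.5-fold.

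Cd53 (chromosome 3, 106759921 to 106790149) encodes another leukocyte tetraspanin, known for holding the phosphatase CD45 (Ptprc) and protein kinase C beta (Prkcb) at the membrane. It reached 16321 and 16416 normalized counts for WT FO, 14273 and 14095 for WT MZ, 16942 and 16589.7 for cKO FO, and 13264 and 13404 for cKO MZ. Here the order was the opposite of that of Cd9, with each MZ library below each FO library. MZ minus FO was -0.21 for WT (SE 0.077, limma adjusted p = 0.115) and -0.33 for cKO (SE 0.077, limma adjusted p = 0.0221). Across both genotypes it was -0.27 (limma adjusted p = 0.00745), or 1.20-fold lower in MZ, which met the cutoff on p and not that on size.

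Cd151 (chromosome 7, 141467392 to 141471473) encodes the partner of laminin-binding integrins, whose alpha chains come from Itga3 and Itga6. There were 287 and 379 normalized counts for WT FO, 271 and 374 for WT MZ, 243 and 416 for cKO FO, and 310.0 and 257 for cKO MZ. The groups overlapped, and replicates of 1 group lay as far apart as the groups. For Cd151 the difference was -0.05 for WT (95% interval -0.72 to 0.61, limma adjusted p = 0.932) and -0.17 for cKO (95% interval -0.84 to 0.49, limma adjusted p = 0.719). These intervals include a fall of 1.5-fold for both genotypes and a rise of 1.5-fold for WT.

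Cd63 (chromosome 10, 128900989 to 128912822), whose product sits in late endosomes and exosomes, was near the limit of detection. Its reads were 2 and 6 for WT FO, 7 and 7 for WT MZ, 5 and 3 for cKO FO, and 16 and 6 for cKO MZ. With a mean below 10 normalized counts it was not tested. The ratio of MZ to FO was 1.68 for WT (95% exact binomial interval 0.657 to 4.61) and 2.63 for cKO (1.13 to 6.83), and such intervals cover counting error only. The highest value, 15.9 normalized counts, was that of cKO MZ replicate 1, in which 8 macrophage markers summed to 1645 against 501 to 1558 in the other libraries. The part of macrophages, granulocytes and erythroid cells in it was not tested.

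Tspan14 (chromosome 14, 40906445 to 40966807) belongs to the TspanC8 group, whose members bind ADAM10 and steer which substrates it cuts, among them Notch receptors. Its counts, normalized, were 1364 and 1725 for WT FO, 1237 and 1655 for WT MZ, 1576 and 1442 for cKO FO, and 1282 and 1237 for cKO MZ. WT libraries of FO and MZ overlapped, whereas in cKO both MZ libraries were below both FO libraries. For Tspan14 the difference was -0.10 for WT (95% interval -0.48 to 0.28, limma adjusted p = 0.733) and -0.26 for cKO (95% interval -0.64 to 0.12, limma adjusted p = 0.305), and neither passed.

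Tspan3 (chromosome 9, 56131725 to 56165477), a widely expressed member, gave 203 and 186 normalized counts for WT FO, 322 and 269 for WT MZ, 229.5 and 211 for cKO FO, and 349 and 308 for cKO MZ. All 4 MZ libraries were above all 4 FO libraries. The difference of Tspan3 was 0.60 for WT (SE 0.157, limma adjusted p = 0.0379), just past 1.5-fold, and 0.57 for cKO (SE 0.157, limma adjusted p = 0.0398), just short of it. The WT call was kept in 6 of 17 alternatives, with an adjusted p by limma, edgeR or DESeq2 between 0.0149 and 0.191, and was lost when any 1 of the 8 libraries was left out, at values between 0.47 and 0.73. Across both genotypes the value was 0.59 (limma adjusted p = 0.00549). That call fell short of 1.5-fold without WT FO replicate 2 (0.55), WT MZ replicate 1 (0.52), cKO FO replicate 2 (0.56) or cKO MZ replicate 1 (0.54), and with quantile normalization (0.44).

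Tspan31 (chromosome 10, 127067280 to 127070264) is known from its co-amplification with its neighbour Cdk4 in human sarcomas. Libraries held 315 and 423 normalized counts for WT FO, 876 and 855 for WT MZ, 314 and 423 for cKO FO, and 883 and 774 for cKO MZ. No FO library reached the range of the MZ libraries, and the FO replicates lay further apart than the MZ replicates. MZ minus FO was 1.24 for WT (SE 0.189, 95% interval 0.80 to 1.68, limma adjusted p = 0.00451) and 1.18 for cKO (SE 0.189, 95% interval 0.74 to 1.62, limma adjusted p = 0.00485). Without cKO MZ replicate 1 the cKO value was 1.09 and just missed the cutoff (limma adjusted p = 0.0504), and the WT call was kept.

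Tspan31 overlaps Cdk4, the gene of a cell cycle kinase of G1 phase, on the opposite strand, and 641 of the 2193 exon bases of Tspan31 (29.2%) are shared. Whether the counting used strand is not given in the sources used here, so reads from the shared bases cannot be told apart. Cdk4 had 1880.1 and 2277 normalized counts for WT FO, 2940.4 and 3459.5 for WT MZ, 2078 and 2247 for cKO FO, and 3405 and 3264 for cKO MZ. It was called higher in MZ as well, with 0.62 for WT and 0.63 for cKO (limma adjusted p = 0.0125 and 0.0109), in 14 of 17 alternatives each. The part of Cdk4 reads in the values of Tspan31 was not tested. Cd9 shares 218 exon bases (10.7%) with Gm26728 and Cd151 193 (7.04%) with Gm10575, both on the opposite strand, and neither of those genes exceeded 6.19 normalized counts in a library.

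**Figure D2:**
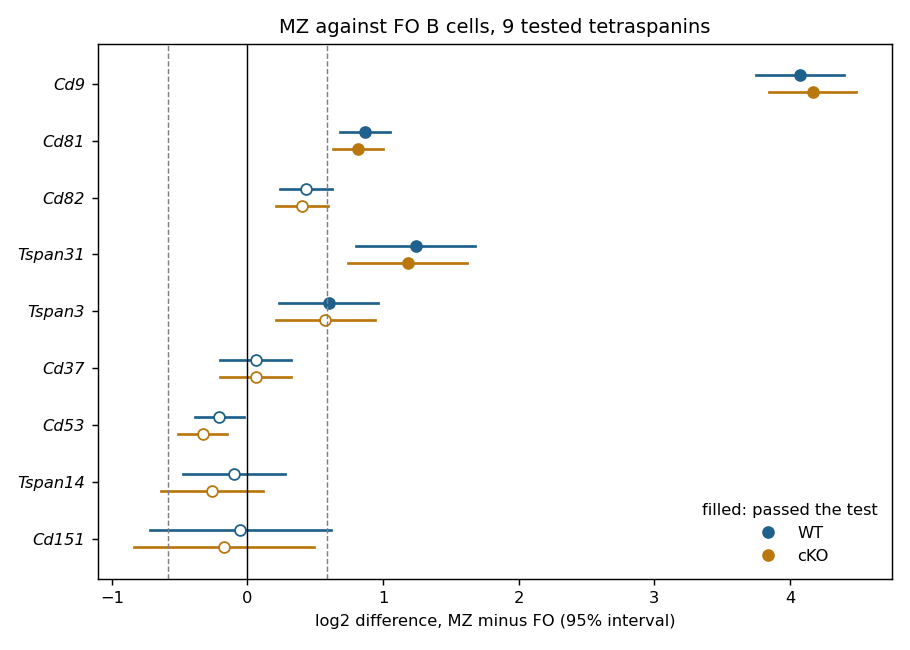
Log2 difference (x axis, MZ minus FO, with the 95% interval of the limma fit) of the 9 tested tetraspanin genes (y axis) in WT and cKO, with filled points for genes that passed the test and dashed lines at 1.5-fold. The WT and cKO intervals overlap for each gene, and Cd9, at 4.07 and 4.17, lies far to the right of the others.

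No difference between WT and cKO was detected for the 9 genes tested. By the interaction of subset and genotype 0 of the 9 tested genes were called (0% of all genes tested), and edgeR and DESeq2 called 0. In limma 0 of the 9 had an unadjusted p under 0.05 for it, against 94 of the 14761 genes tested. The interaction (cKO minus WT) lay between -0.16 for Tspan14 and 0.09 for Cd9. For Cd9 its 95% interval was -0.36 to 0.55, and the widest interval, that of Cd151, was -1.06 to 0.82. Between cKO and WT, 0 of the 9 were called in FO (0.0677% of all genes tested) and 0 in MZ B cells (0.0339%), and edgeR and DESeq2 called 0. By limma 0 of the 9 had an unadjusted p under 0.05 in either subset. Over the 14761 genes tested, 382 had one in FO and 596 in MZ. Cd9 was lower in both cKO FO libraries than in both WT FO libraries, but its difference (cKO minus WT) of -0.22 in FO and -0.13 in MZ did not pass (limma adjusted p = 1 and 0.998).

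To set levels of different genes side by side, normalized counts were divided by exon length in kb. That length joins the exons of all annotated transcripts of a gene, which can exceed the transcript expressed. The order of genes and their shares were not tested with other lengths. In FO libraries Cd37 (8886 to 10377 per kb) and Cd53 (9369 to 9725) led and overlapped. Next came Cd81 (968 to 1043) and Cd82 (918 to 985), which overlapped, then Tspan14 (515 to 651), and then Tspan31 (143 to 193) and Cd151 (88.6 to 152), which overlapped. Tspan3 (43.4 to 53.7), Cd9 (38.4 to 46.5) and Cd63 (0.542 to 1.55) were lowest, Tspan3 and Cd9 with overlapping ranges. In MZ libraries neighbours in the order did not overlap. There Cd37 (10001 to 10274 per kb) was above Cd53 (7614 to 8193), followed by Cd81 (1708 to 1951), Cd82 (1214 to 1340.4), Cd9 (640.2 to 806) and Tspan14 (467 to 624). Tspan31 (353 to 403), Cd151 (93.7 to 136), Tspan3 (62.9 to 81.6) and Cd63 (1.68 to 4.33) came last. Cd9 thus ranked 9 of the 10 genes in FO and 5 in MZ B cells.

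Set against the whole family, the level per kb summed over the 30 tetraspanin genes of the table was between 23812 and 25138 in FO and between 24875 and 26145 in MZ libraries. Cd9 made up 0.153% to 0.186% of that sum in FO and 2.57% to 3.14% in MZ libraries, and Cd81 3.85% to 4.24% and 6.85% to 7.46%. Cd37 and Cd53 together held 77.6% to 79.2% in FO and 69.7% to 71.0% in MZ libraries. The share of Cd53 was 37.6% to 40.8% in FO and 30.6% to 31.3% in MZ libraries, and that of Cd37 37.3% to 41.3% and 38.4% to 40.3%. These shares are a description, since more of 1 gene lowers the share of the rest.

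**Figure D3:**
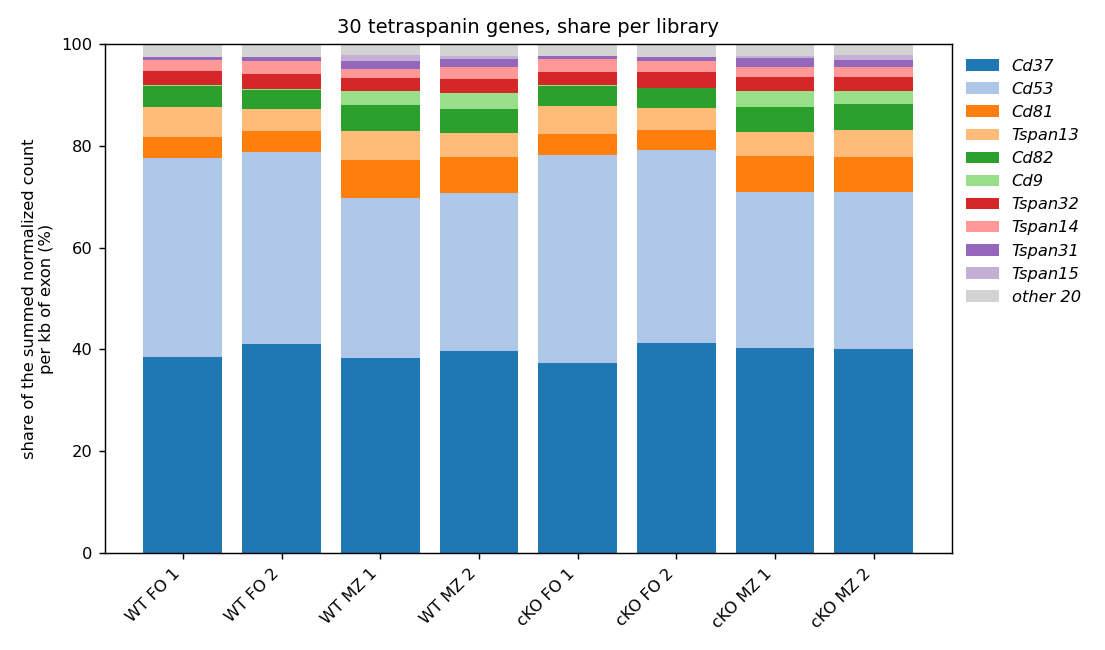
Share (y axis, % of the summed normalized count per kb of exon) of 30 tetraspanin genes in each of the 8 libraries (x axis), as stacked bars with the 10 largest shares named and the other 20 genes together. Cd37 and Cd53 fill at least 69.7% of each bar, and the Cd9 band is 2.57% to 3.14% of the MZ bars and at most 0.186% of the FO bars.

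Beyond the 10, a list of 23 tetraspanin genes had 20 in the table and 12 that could be tested. For WT 1 of the 12 was called higher in MZ (7.41% of all genes tested) and 0 lower (4.62% of all). Also for WT, 3 of the 12 had an unadjusted p under 0.05 by limma in either direction, as had 4469 of the 14761 genes tested. There edgeR and DESeq2 called 1 of the 12 higher and 0 lower. For cKO 2 were called higher (8.18% of all) and 1 lower (5.54% of all). Fitted across both genotypes, 2 of the 12 were called higher (10.9% of all) and 1 lower (7.45% of all). Their median log2 difference was -0.06 for WT and 0.03 for cKO. The 3 with the highest level per kb averaged over all 8 libraries did not pass in either genotype. These were Tspan13 (2749 to 3675 normalized counts over the 8 libraries), Tspan32 (3913 to 4724), a member restricted to blood cells, and the TspanC8 gene Tspan17 (147 to 235). Tspan4 was called higher across both genotypes (1.10, limma adjusted p = 0.0133) and in neither alone. It had 16.1 to 30.2 normalized counts in FO and 47.1 to 50.5 in MZ libraries. Of its 2178 exon bases, 292 are shared with Chid1 on the opposite strand, whose part was not tested.

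Tspan15 (chromosome 10, 62185396 to 62231251), a TspanC8 gene like Tspan14, was the gene called in WT. It had 36.9 and 14.3 normalized counts for WT FO, 2649.6 and 1229 for WT MZ, 16.8 and 7.05 for cKO FO, and 1115 and 2063 for cKO MZ. Replicates lay further apart than those of Cd9, but no FO library came near an MZ library. MZ minus FO was 6.23 for WT (SE 0.593, limma adjusted p = 0.000641) and 6.99 for cKO (SE 0.593, limma adjusted p = 0.000346), past the cutoff in each of 17 alternatives.

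Within the 6 TspanC8 genes, Tspan15 made up 0.119% to 0.643% of the level per kb in FO and 16.3% to 34.1% in MZ libraries. Tspan14 held 73.3% to 80.2% in FO and 49.2% to 67.8% in MZ libraries. Adam10, the gene of the protease they bind, had 3486 to 4116 normalized counts over the 8 libraries and did not pass, with MZ minus FO of 0.11 for WT and 0.03 for cKO (limma adjusted p = 0.38 and 0.798). Notch2, the receptor that MZ B cells need to develop, was read at 16302 to 18844 in FO and 13530.0 to 15140.3 in MZ libraries. Its differences of -0.22 and -0.29 did not pass either (limma adjusted p = 0.187 and 0.0862).

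**Figure D4:**
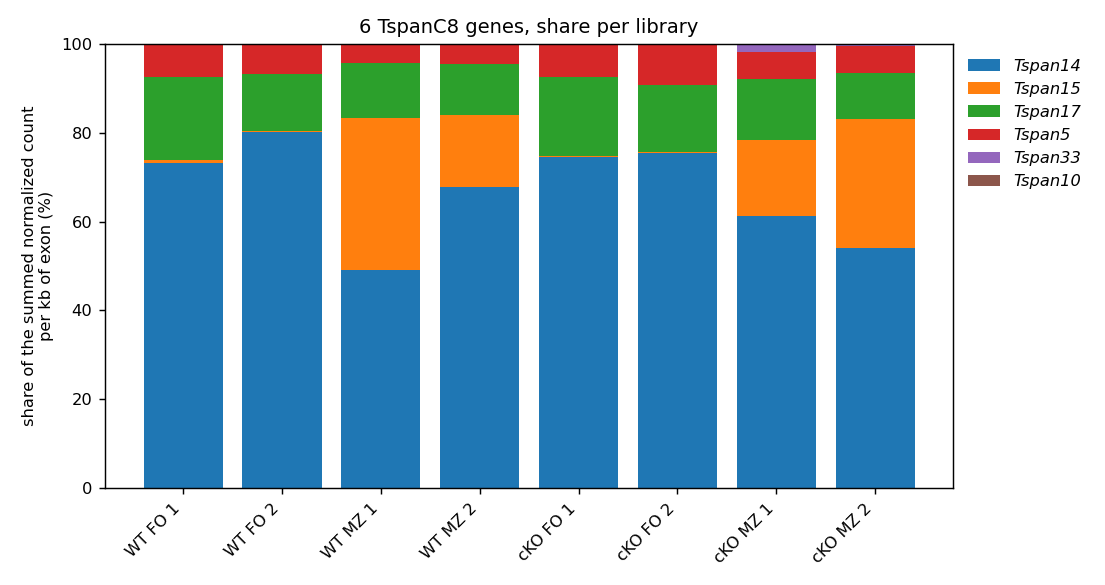
Share (y axis, % of the summed normalized count per kb of exon) of the 6 TspanC8 tetraspanin genes in each of the 8 libraries (x axis), as stacked bars. Tspan15 is at most 0.643% of the FO bars and 16.3% to 34.1% of the MZ bars.

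Tspan33, a further TspanC8 gene, and Tspan18 passed in cKO and not in WT, and neither was shown to differ between the genotypes (interaction 3.13 and -1.33, limma adjusted p = 1 for both). Tspan33 had 3.99 and 4.76 normalized counts for WT FO, 1.93 and 9.96 for WT MZ, 2.24 and 3.02 for cKO FO, and 76.7 and 13.4 for cKO MZ. Its cKO difference was 3.21 (limma adjusted p = 0.0456), and the ratio of MZ to FO was 17.2 (95% exact binomial interval 7.11 to 54.3), from 90 reads against 5. The high value belongs to cKO MZ replicate 1, the library with raised granulocyte and erythroid markers, whose part was not tested. Without it the difference was 1.997 and the call was lost, and leaving out WT FO replicate 1 or 2 or cKO FO replicate 1 or 2 ended the call as well, at 3.06 to 3.37. The Tspan33 call was also lost with no filter on low counts (limma adjusted p = 0.072), with quantile normalization (limma adjusted p = 0.0806) and with the replicate block (limma adjusted p = 0.0504). Tspan18 had 20.96 and 5.71 for WT FO, 4.82 and 4.53 for WT MZ, 39.2 and 21.1 for cKO FO, and 4.98 and 4.12 for cKO MZ. It was called lower in MZ for cKO, at -2.43 (limma adjusted p = 0.0351), but the 4 cKO libraries were each needed for the call, which was lost at -2.86 to -1.999 without 1 of them. The Tspan18 call was also lost with no filter on low counts (limma adjusted p = 0.0625).

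A list of 25 genes whose products bind tetraspanins or act with them was read in the same fit, and 22 were tested. For WT 3 were called higher (7.41% of all genes tested) and 5 lower in MZ (4.62% of all). For cKO 3 were called higher (8.18% of all) and 6 lower (5.54% of all), with 8 called in the same direction in both genotypes. The median log2 difference of the list was -0.12 for WT and -0.18 for cKO. Besides Cr2, whose call follows from sorting on CD21, the genes called higher were Itgb1 and Hbegf. Those called lower and described here were Itga6, Itgb7, Prkcb and Sdc1, with Sdcbp in cKO.

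Integrin genes were called in both directions. Itgb1, the beta chain shared by most integrins that tetraspanins bind, had 934 and 1106 normalized counts for WT FO, 1552 and 2187 for WT MZ, 1089 and 934 for cKO FO, and 2265 and 1781 for cKO MZ. MZ minus FO was 0.86 for WT (limma adjusted p = 0.0214) and 0.99 for cKO (limma adjusted p = 0.0106). The WT call was lost on p without WT FO replicate 1 (0.73) or WT MZ replicate 2 (0.61). It was also lost in a fit of the 4 WT libraries (limma adjusted p = 0.0742). The cKO call was lost on p without cKO FO replicate 2 (0.88) or cKO MZ replicate 1 (0.82). Itga6, a laminin-binding alpha chain, had 908 and 965 for WT FO, 130.02 and 259 for WT MZ, 1269 and 849 for cKO FO, and 184 and 169 for cKO MZ. It was lower in MZ, at -2.34 for WT and -2.55 for cKO (limma adjusted p = 0.00262 and 0.0016). Itgb7, the beta chain of gut homing, was read at 7131 to 7277 in FO and 1416 to 2111 in MZ libraries, and was lower at -1.997 and -2.19 (limma adjusted p = 0.000321 and 0.000191). Itga4, which pairs with either beta chain, was read at 12970.2 to 14852 in FO and 10945 to 11911 in MZ libraries. At -0.30 for WT it missed the cutoffs on p and on size (limma adjusted p = 0.067). At -0.32 for cKO it missed that on size alone (limma adjusted p = 0.047).

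Of these partners of CD53, Prkcb was called lower and Ptprc was not. Prkcb had 10998 and 12606 normalized counts for WT FO, 6527 and 8273 for WT MZ, 10631 and 10936 for cKO FO, and 6502 and 6630.3 for cKO MZ. MZ minus FO was -0.68 for WT and -0.72 for cKO (limma adjusted p = 0.0098 and 0.00699). Its WT call was lost without WT FO replicate 2 (-0.58) or WT MZ replicate 1 (-0.51) and in a fit of the 4 WT libraries (limma adjusted p = 0.07), its cKO call without cKO MZ replicate 1 (-0.70), and both with quantile normalization (-0.58 and -0.55). Ptprc was read at 51366 to 58015 in FO and 38373 to 46850.4 in MZ libraries, and its differences of -0.27 and -0.35 did not pass (limma adjusted p = 0.135 and 0.0603).

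Hbegf encodes a growth factor whose membrane form binds CD9. It had 2.99 and 1.90 normalized counts for WT FO, 58.8 and 57.1 for WT MZ, 6.72 and 1.01 for cKO FO, and 70.8 and 76.3 for cKO MZ. It was called higher in MZ (limma adjusted p = 0.0045 for WT and 0.00348 for cKO), with a ratio of MZ to FO of 23.8 for WT (95% exact binomial interval 9.92 to 74.5) and 19.8 for cKO (9.37 to 50.1). Sdc1, a syndecan also known as CD138, was read at 331 to 463 in FO and 27.0 to 101 in MZ libraries, with -2.76 for WT and -3.22 for cKO (limma adjusted p = 0.0107 and 0.00495), and the WT call was lost in a fit of the 4 WT libraries (limma adjusted p = 0.0723). Sdcbp, the gene of the CD63 partner syntenin, was called lower in MZ for cKO at -0.59 (limma adjusted p = 0.0178), against -0.42 for WT (limma adjusted p = 0.0648) and an interaction of -0.17 (limma adjusted p = 1). That call was lost without cKO FO replicate 1 (-0.41), cKO MZ replicate 1 (-0.64) or cKO MZ replicate 2 (-0.54), and with quantile normalization (-0.46). Igsf8, whose product binds CD9 and CD81, had 309 to 419 normalized counts over the 8 libraries and did not pass (-0.13 and -0.19, limma adjusted p = 0.646 and 0.444), and its relative Ptgfrn was at most 4.53 and not tested.

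**Figure D5:**
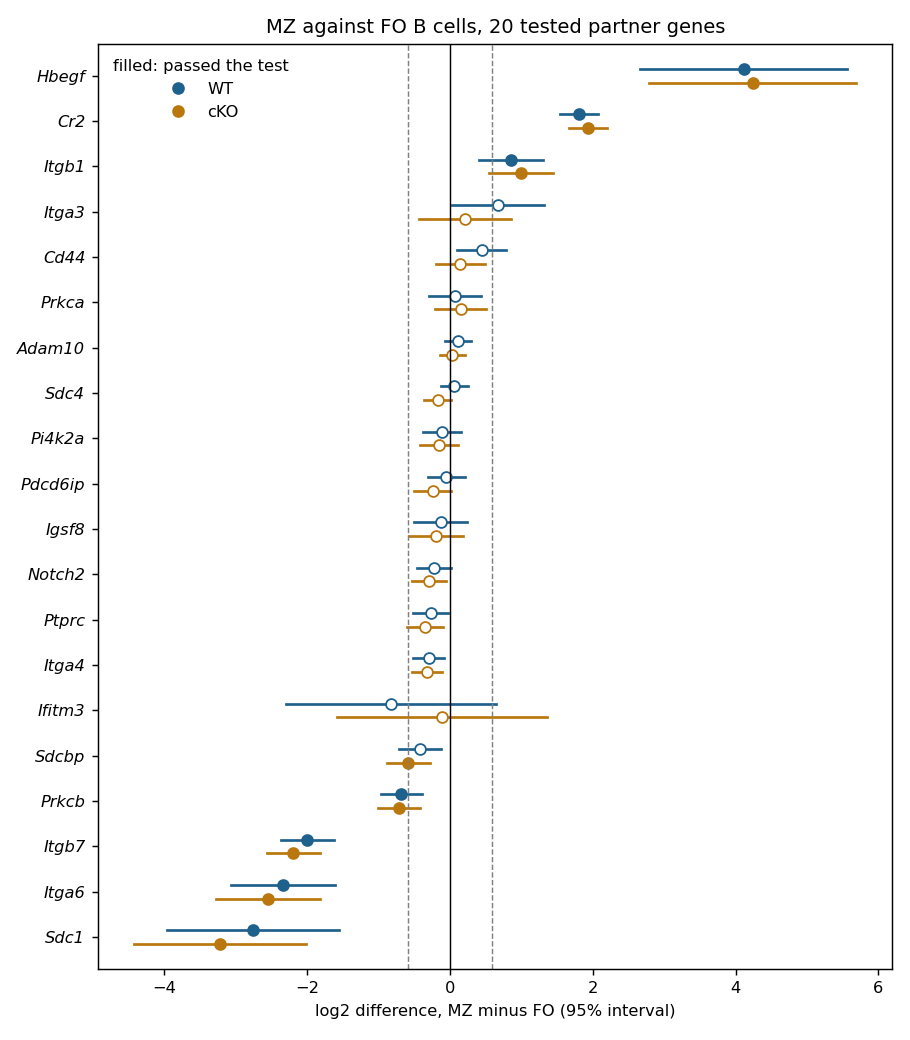
Log2 difference (x axis, MZ minus FO, with the 95% interval of the limma fit) of 20 of the tested partner genes (y axis) in WT and cKO, with filled points for genes that passed the test and dashed lines at 1.5-fold. Hbegf, Cr2 and Itgb1 lie to the right with filled points, and Sdc1, Itga6, Itgb7 and Prkcb to the left.

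The 5 genes whose pattern was most like that of Cd9 were found by the root mean square difference between log2 profiles centred on their mean over the 8 libraries. They were AW011738 (0.185), Myof (0.202), Fcrl5 (0.25), Il10 (0.258) and Gm4956 (0.261). Myof, the gene of the membrane repair protein myoferlin, had 534 to 668 normalized counts in FO and 9479.7 to 13391 in MZ libraries. Fcrl5, an Fc receptor-like gene, had 418 to 616 and 5614 to 7175. Il10, the gene of a regulatory cytokine, had 10.5 to 17.9 and 222 to 309. With 2 subsets, this measure ranks genes mainly by the size of their gap between FO and MZ.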

How the data were processed

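RNA depleted of ribosomal RNA was sequenced as single-end reads of 50 bases. Per the study's methods and processing notes, reads were aligned with HISAT2 to mm10 and counted with featureCounts or HTSeq; versions are not given in the sources used here. The authors deposited the signal as normalized counts, each a read count divided by a DESeq2 size factor, which were taken as deposited. Whole reads came back for 100% of the values within 0.001 of a read. The 256343 blank lines of the table were left out.

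Log2(normalized count + 1) of the 14761 genes with a mean of at least 10 was fitted with limma 3.58.1 (R 4.3.3, eBayes with trend), all 8 libraries in a single fit, and p-values were adjusted by Benjamini-Hochberg over all genes tested. The pseudocount understates changes of low genes. Permuting 2 against 2 libraries exactly cannot give a p of 0.05. MZ was compared with FO in each genotype and across both, cKO with WT in each subset, and the interaction was tested. Alternatives were a pseudocount of 0.5, no filter, quantile normalization, edgeR 4.0.16 and DESeq2 1.42.0 on the recovered reads, a fit of the 4 libraries compared, replicate blocks, other fold cutoffs and each library left out. The fits were tested on simulated data.

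The 10 genes and the lists were chosen with earlier results of these data known. Named are the 10 genes, genes of the lists called in either genotype, listed complex partners, the 3 other tetraspanins highest per kb, the 5 genes most like Cd9, and checks. R74862, Gm26728, Gm10575, Chid1, Cdk4 and Xist were added outside this rule after their values were seen, as overlapping genes or checks. Tspan4 was added likewise for its call across both genotypes. Pf4, Jchain, Mzb1 and Prdm1 were added likewise as markers. Exon lengths and overlaps are from GENCODE M21 (GRCm38), in which 27872 identifiers matched without their version. Promoters are from RefSeq, in which the 10 genes and Tspan15 all had an entry. The ATAC-seq samples were not analysed here. Some partner genes are counted in their list and otherwise not reported here.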

Additional observations from a re-analysis of the deposited data

How the results depend on the processing

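Of the 9 tested genes, 3 were called for WT whichever library was left out, 2 to 3 for cKO and 3 to 4 across both genotypes, while the interaction and the comparisons of cKO with WT stayed at 0. A cutoff of 2-fold left 2 for WT and 2 across both genotypes, and no fold cutoff gave 6 for cKO. Of the other tetraspanins 1 was called for WT whichever library was left out and 1 to 3 for cKO, with 1 for cKO when low genes were kept. Of the partners 7 to 8 were called for WT and 6 to 9 for cKO, and 5 for WT in a fit of the 4 libraries compared, which has fewer samples.

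Same-numbered libraries deviated together in 3 of the 6 pairs of groups (WT FO with WT MZ 0.59, WT FO with cKO FO 0.29, WT MZ with cKO FO 0.16) and not in those with cKO MZ (-0.30, -0.17 and -0.00), so the numbers were not taken as pairs. With the replicate block the counts were 4 for WT, 3 for cKO and 4 across both, with 2 other tetraspanins for cKO, and 8 and 9 partners. A block with the numbers of cKO MZ exchanged, chosen after seeing the data, gave 4, 3 and 4, with 4 other tetraspanins for cKO.

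Signs turned for differences that did not pass. With 1 library left out, Cd37 ranged from -0.022 to 0.14 for WT and from -0.052 to 0.17 for cKO, Cd151 from -0.28 to 0.18, from -0.56 to 0.21 and, across both, from -0.30 to 0.081, and Tspan14 for WT from -0.31 to 0.11. Tspan33 for WT ranged from -0.87 to 1.03 and was -0.33 with quantile normalization. For Cd9 the interaction ranged from -0.051 to 0.23 and cKO minus WT in MZ from -0.27 to 0.013. Of the alternatives for single genes, 962 kept direction and side of the cutoff, 65 lost a call, 9 gained one and 14 turned. Limits are the 2 libraries per group, the unknown number of mice behind each, and counting error for Cd63, Tspan33 and Hbegf.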
